A study of Mus musculus with 8 samples.

Results

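The genes described here encode the growth factor Igf1, its receptor Igf1r and the binding proteins Igfbp2, Igfbp3, Igfbp4, Igfbp5, Igfbp6 and Igfbp7. They were taken by symbol from a table of RNA counts of mouse embryonic heart, and all 8 were found among its 22869 symbols. RNA was sequenced from atrioventricular (AV) cushions, the swellings of the AV canal that form valves and septa, and from ventricles of C57BL/6 embryos at E12.5. There were 2 libraries in each of 4 groups: mutant cushion, wild type cushion, mutant ventricle and wild type ventricle. The mutants carry the genotype label NfatC1+/- with KLF2fl/fl, and the controls the label wild type. The series' design mentions Klf2 fl/fl mice beside the mutants, so the controls may carry floxed alleles too. Whether NfatC1+/- means that an Nfatc1 copy is lost or that a recombinase sits at that gene is not stated, nor is the number of embryos in a library. Nfatc1 is a transcription factor gene of the endocardium, the inner lining of the heart, and Klf2 is a flow-responsive transcription factor gene.

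Igf1 and the related Igf2 are secreted peptides that act through the tyrosine kinase receptor Igf1r and, inside the cell, through insulin receptor substrates, phosphoinositide 3-kinase and Akt. Most of the secreted peptide is held by binding proteins, which carry it, keep it from the receptor or hold it in the matrix, and which proteases cut to release it. In the embryonic heart IGF signalling is known for its part in the growth of the ventricular wall. Igfbp7 differs from the other binding proteins in its low affinity for IGF and is known as a secreted protein of vessels and matrix.

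Library totals lay between 18955733 and 26579215 counts with 1 row kept per symbol, and levels are given as counts scaled to the same library total (CPM). 1 CPM corresponded to at least 18.7 reads. Klf2 was at 1.96 and 0.652 CPM in mutant cushions, against 17.3 and 12.9 CPM in wild type cushions, and at 0.736 and 0.625 CPM in mutant ventricles, against 11.7 and 9.19 CPM in wild type ventricles. Every mutant library was below every wild type library, with log2 fold changes of -3.54 in cushions and -3.93 in ventricles that passed with the replicate number as a block (adjusted p = 2.86e-05 and 4.56e-05 in edgeR's quasi-likelihood test) and not without it (0.145 and 0.269). Nfatc1 was at 24.9 and 15.2 CPM in mutant cushions, against 35.9 and 22.1 CPM in wild type cushions, which overlapped. Summed over 9 markers of AV canal and cushion mesenchyme the level was 9968 and 6294 CPM in mutant cushions, 13940 and 6492 CPM in wild type cushions, 3438 and 1110 CPM in mutant ventricles and 3577 and 1376 CPM in wild type ventricles, with none of the 9 at 0. Sums over 5 chamber myocardium markers were 2374 to 5016 CPM in cushions and 8554 to 12040 CPM in ventricles, and over 8 endothelial markers 1335 to 1661 CPM and 1742 to 2251 CPM. Cardiomyocyte markers were abundant in the cushion libraries too, with sums over 7 genes from 27600 to 44230 CPM in cushions and from 35750 to 95970 CPM in ventricles, so the cushion samples hold heart muscle RNA as well.

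Of the 8 genes, 7 were tested and Igfbp6 was not. Igfbp6, which encodes a binding protein that prefers Igf2, had 4 and 2 reads in mutant cushions, 2 and 5 in wild type cushions, 5 and 9 in mutant ventricles and 1 and 5 in wild type ventricles. These reads correspond to at most 0.402 CPM, too few to compare groups. The other genes had at least 175 reads in every library. Per kilobase of the longest annotated transcript, Igfbp5 had the highest level in every group, with 126 ± 31.9 CPM per kb in mutant cushions, 154 ± 12.8 in wild type cushions, 115 ± 54.0 in mutant ventricles and 98.6 ± 44.7 in wild type ventricles (SD, n = 2 each). Its libraries did not overlap with those of the second gene, Igfbp4, in any group. Below Igfbp4 the order differed by tissue. In mutant and wild type cushions Igf1 averaged 42.7 and 41.1 CPM per kb, Igfbp7 34.6 and 43.2, and Igfbp3 33.1 and 26.8, all above Igf1r (14.1 and 16.3) and Igfbp2 (9.39 and 13.5). In mutant and wild type ventricles Igfbp3 (21.4 and 16.1), Igfbp2 (19.7 and 17.8), Igf1r (16.4 and 16.9) and Igf1 (15.1 and 13.3) followed each other with overlapping libraries, and Igfbp7 was lower, at 7.82 and 8.22 CPM per kb. Igf1 and Igfbp7 overlapped in both cushion groups, as did Igfbp4 and the gene after it there. The transcripts that the counted reads came from are not known, so these levels per length are approximate.

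**Figure D1:**
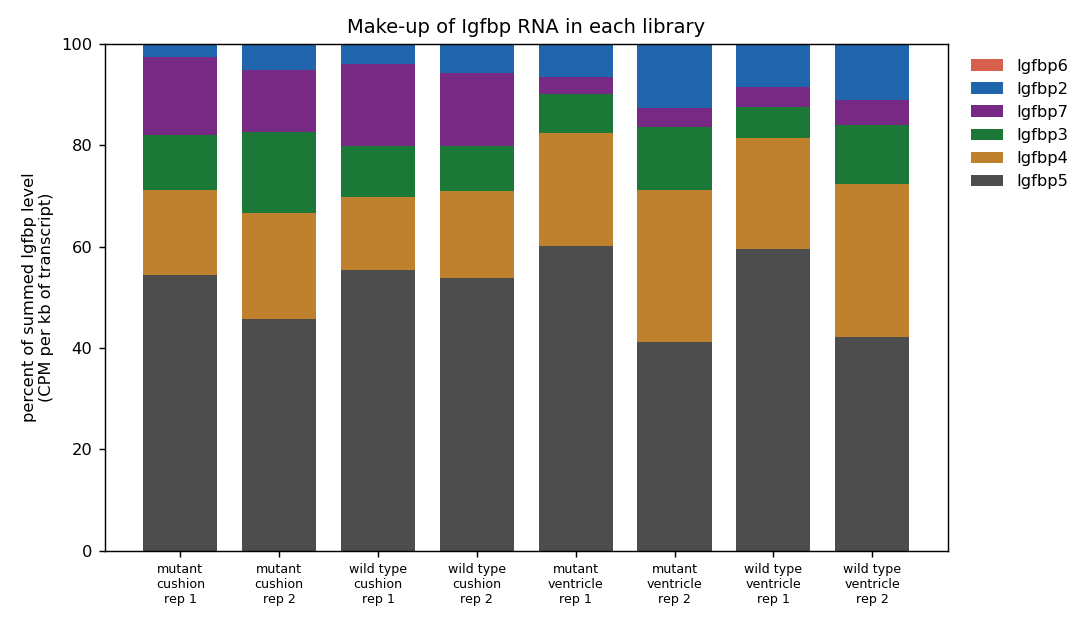
Share of the summed Igfbp level, in CPM per kb of transcript, taken by each Igfbp gene in each of the 8 libraries. Igfbp5 takes from 41.2% to 60.1%, and Igfbp7 takes over 12% in each cushion library and under 5% in each ventricle library. Igfbp6, at 0.194% or less, is too thin to see.

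Within the Igfbp family, Igfbp5 took the largest share in every library, while the order of the others differed between libraries. Igfbp4 made up 16.7% and 20.9% in mutant cushions, 14.4% and 17.05% in wild type cushions, 22.3% and 29.9% in mutant ventricles and 21.9% and 30.1% in wild type ventricles. Igfbp7 made up 15.3% and 12.1% in mutant cushions, 16.1% and 14.4% in wild type cushions, 3.42% and 3.72% in mutant ventricles and 3.99% and 4.85% in wild type ventricles. For both genes the cushion and ventricle libraries did not overlap. The share of Igfbp5 differed more between replicate numbers than between groups in ventricles, where it was 60.1% and 41.2% in mutants and 59.6% and 42.2% in wild type.

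The tissues were compared within each genotype, to ask which of these genes distinguish cushion from ventricle at this stage. Igfbp7, Igf1 and Igfbp3 were higher in cushion than in ventricle, about 5-fold, 3-fold and 1.7-fold in wild type, and Igfbp2 was lower in mutant cushions than in mutant ventricles. The calls, at an adjusted p of 0.05 in edgeR's quasi-likelihood test over 14940 genes, were 2 of 7 in mutants (Igfbp7 higher, Igfbp2 lower) and 3 of 7 in wild type (Igfbp7, Igf1 and Igfbp3, all higher). Of all genes tested, 9.42% were called in mutants and 23.1% in wild type. Those 1407 calls in mutants became 309 and 440 without replicate 1 of the mutant cushions or replicate 2 of the mutant ventricles, and 848 without mutant ventricle replicate 1. The 3452 calls in wild type became 1414 and 1334 without cushion replicate 1 or 2, and 2246 and 739 without ventricle replicate 1 or 2 of that genotype. With the replicate number as a block, 4 of 7 were called in each genotype, where 23.9% and 41.4% of all genes were. The median log2 fold change of the 7 genes was 0.13 in mutants and 0.64 in wild type, against 0.01 over all genes in both. Fewer cells of a type and less RNA per cell cannot be told apart in these tissue samples, and the cushion mesenchyme markers given above move with the same contrast; their part in it was not tested.

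Igfbp7 had the largest tissue difference of the 7 genes. It was at 50.2 and 32.8 CPM in mutant cushions, against 10.5 and 8.30 CPM in mutant ventricles, and at 57.0 and 46.5 CPM in wild type cushions, against 10.5 and 9.24 CPM in wild type ventricles. Every cushion library was above every ventricle library. The log2 fold change of cushion over ventricle was 2.14 ± 0.23 (SE) in mutants, with an adjusted p of 0.00209, and 2.39 ± 0.24 (SE) in wild type, with an adjusted p of 7.77e-04. The call was made in both genotypes under every alternative run.

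Igf1, the ligand, followed the same pattern with a wider spread. It was at 383 and 219 CPM in mutant cushions, against 136 and 76.4 CPM in mutant ventricles, and at 367 and 213 CPM in wild type cushions, against 110.4 and 77.8 CPM in wild type ventricles. The groups did not overlap, although replicate 2 of each cushion group was nearer to the ventricles than replicate 1. The log2 fold change was 1.50 ± 0.43 (SE) in mutants, which missed the threshold (adjusted p = 0.0862). In mutants it passed with the block (7.05e-07), with DESeq2 (6.14e-04) and with a correction of GC content and transcript length (0.0233). It also passed from the first row of the gene (0.0191), which is the row with the fewest reads. In wild type it was 1.62 ± 0.43 (SE) and passed (adjusted p = 0.0415). The wild type call was lost on leaving out any 1 of the 4 wild type libraries in that fit, with values from 1.17 to 1.96 and adjusted p = 0.17 and 0.0597 without wild type cushion replicate 1 or 2, and 0.0715 and 0.173 without wild type ventricle replicate 1 or 2. It was also lost with no filter on low counts (1.60, adjusted p = 0.0745). With the block it was made with any 1 library left out.

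Igfbp3, the main carrier of IGF in blood, was at 71.7 and 88.5 CPM in mutant cushions, against 47.1 and 56.5 CPM in mutant ventricles, and at 71.8 and 57.9 CPM in wild type cushions, against 32.3 and 45.4 CPM in wild type ventricles. Cushion was above ventricle within each genotype. The log2 fold change was 0.63 ± 0.20 (SE) in mutants, which passed with the block (adjusted p = 0.0917, and 0.0125 with it), and 0.74 ± 0.20 (SE) in wild type, which passed (adjusted p = 0.0331). The wild type call ended on leaving out any wild type library (0.157 and 0.0545 for cushion replicates 1 and 2, 0.167 and 0.0566 for ventricle replicates 1 and 2) and once GC content and transcript length were corrected for (0.0791). In the block fit it ended without wild type cushion replicate 1 (0.0613) or wild type ventricle replicate 1 (0.0659). The mutant call of the block fit ended without mutant cushion replicate 2 (0.0713) or mutant ventricle replicate 1 or 2 (0.112 and 0.0569).

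The promoters of these 3 genes are shown because their RNA was called higher in cushion than in ventricle in wild type. Given are the 250 bases before the annotated start, from RefSeq on GRCm38.p6, 5′ to 3′ on the strand of the gene. CACCC or its reverse complement GGGTG is in capitals. CACCC is a core of the sites that Krüppel-like factors such as Klf2 are known to bind. Igfbp7 is at chr5:77408046-77408295 (minus strand), Igf1 at chr10:87860861-87861110 (plus strand) and Igfbp3 at chr11:7213924-7214173 (minus strand).
Igfbp7: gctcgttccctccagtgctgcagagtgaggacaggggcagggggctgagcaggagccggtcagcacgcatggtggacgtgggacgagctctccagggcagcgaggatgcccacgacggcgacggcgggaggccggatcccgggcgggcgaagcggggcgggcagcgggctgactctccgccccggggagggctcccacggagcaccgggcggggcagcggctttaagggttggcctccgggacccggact
Igf1: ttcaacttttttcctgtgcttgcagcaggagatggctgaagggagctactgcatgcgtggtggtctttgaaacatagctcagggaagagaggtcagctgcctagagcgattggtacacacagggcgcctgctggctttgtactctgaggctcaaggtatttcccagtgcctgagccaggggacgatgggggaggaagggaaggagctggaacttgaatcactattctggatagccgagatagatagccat
Igfbp3: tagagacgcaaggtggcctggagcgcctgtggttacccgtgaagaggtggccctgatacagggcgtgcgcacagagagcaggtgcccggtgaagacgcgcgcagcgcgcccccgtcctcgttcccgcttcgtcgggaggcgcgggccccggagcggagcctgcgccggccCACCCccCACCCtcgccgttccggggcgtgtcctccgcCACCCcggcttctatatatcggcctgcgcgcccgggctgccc
Igfbp3 held 3 matches to CACCC, and Igf1 and Igfbp7 held 0. The motif was found in 52% of 32851 promoter windows of this length. Of the other members, Igfbp5 held 3 matches, Igfbp6 2, Igfbp4 1, Igf1r 0 and the pair of Igfbp2 windows 1 and 2. The letters GGAAA, the core of sites known for NFAT factors, occurred 2 times in the window of Igf1 and 0 times in those of Igfbp3 and Igfbp7, and were found in 55.6% of all windows. The exact letters TATAAA, a form of the TATA box, occurred in the windows of Igfbp4 and Igfbp6 and in 12.4% of all windows. Other forms of the box were not searched for. Both strands were searched, and no CACCC match overlapped a match to the other motifs. GC content was 74% for Igfbp7, 73.2% for Igfbp3 and 52.8% for Igf1. No binding was measured in these samples.

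Igfbp2, a binding protein abundant in embryos, ran the other way. It was at 9.17 and 15.4 CPM in mutant cushions, against 21.4 and 30.1 CPM in mutant ventricles, and at 15.02 and 20.3 CPM in wild type cushions, against 23.95 and 22.7 CPM in wild type ventricles. Cushion lay below ventricle in both genotypes without overlap. The log2 fold change was -1.07 ± 0.27 (SE) in mutants, called in mutants (adjusted p = 0.0468), and -0.40 ± 0.27 (SE) in wild type, which did not pass (adjusted p = 0.314). The mutant call was lost without mutant cushion replicate 1 (-0.75, 0.257), mutant ventricle replicate 1 or 2 (-1.32 and -0.80, 0.0522 and 0.218) or wild type ventricle replicate 1 or 2 (-1.10 and -1.07, 0.083 and 0.0883). With the block its adjusted p was 5.10e-04. After the GC and length correction Igfbp2 also fell in wild type, with -0.80 and an adjusted p of 0.0414.

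Igfbp4, which is known mostly as an inhibitor of IGF action, varied least of the 7, between 163 and 218 CPM over the 8 libraries. It was at 174 and 181 CPM in mutant cushions, against 218 and 213 CPM in mutant ventricles, and at 163 and 176 CPM in wild type cushions, against 184 and 183 CPM in wild type ventricles. Cushion lay below ventricle without overlap in each genotype. The log2 fold changes of -0.28 ± 0.12 (SE) in mutants and -0.12 ± 0.12 (SE) in wild type missed the threshold (adjusted p = 0.189 and 0.51). Under the GC and length correction combined with the block, the mutant value was -0.34 and passed (adjusted p = 0.0108). In wild type the value after the GC and length correction was -0.49, with an adjusted p of 0.0126.

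Igfbp5, a binding protein that attaches to matrix, was at 892 and 621 CPM in mutant cushions, against 919 and 461 CPM in mutant ventricles, and at 980.1 and 871 CPM in wild type cushions, against 782 and 403 CPM in wild type ventricles. The mutant libraries of the tissues overlapped and the wild type ones did not. The log2 fold change was 0.13 ± 0.42 (SE) in mutants and 0.64 ± 0.42 (SE) in wild type (adjusted p = 0.888 and 0.302), and the wild type value passed with the block (0.73, adjusted p = 0.00715). In the block fit that call ended without wild type cushion replicate 2 or wild type ventricle replicate 2. The receptor Igf1r was at 177 and 145 CPM in mutant cushions, against 234 and 139 CPM in mutant ventricles, and at 222 and 149.7 CPM in wild type cushions, against 246 and 138 CPM in wild type ventricles. All pairs of groups overlapped. Its log2 fold changes of -0.21 ± 0.36 (SE) and -0.05 ± 0.36 (SE) did not pass, and their 95% confidence intervals, -1.07 to 0.64 in mutants and -0.90 to 0.81 in wild type, leave room for a difference in either direction. With the GC and length correction and the block together, Igf1r was lower in cushions in both genotypes, with -0.31 in mutants (adjusted p = 0.0104) and -0.25 in wild type (adjusted p = 0.0258). In the fits with this correction, given for Igfbp2 and Igfbp4 too, the median over all genes was -0.07 in each genotype. Without the correction that median was 0.01 to 0.02. Cushion and ventricle libraries did not overlap for 5 of the 7 genes in mutants, 3 higher and 2 lower in cushions, where 53.1% of all genes tested did not (28.9% higher and 24.2% lower). In wild type they did not overlap for 6, 4 higher and 2 lower, where 65.3% of all genes did not (33.5% higher and 31.8% lower).

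**Figure D2:**
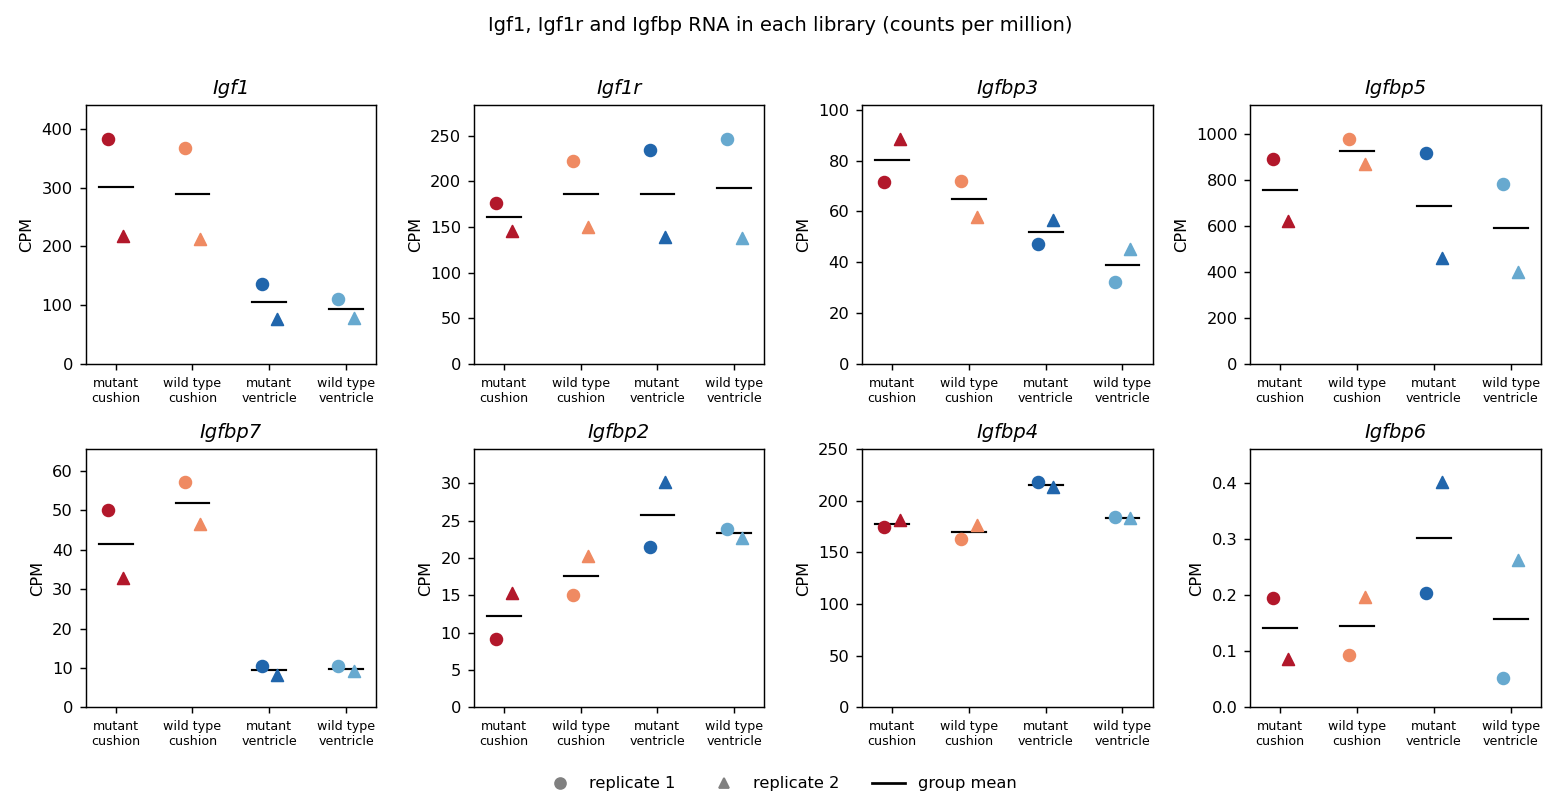
Level of each of the 8 genes in CPM (linear axes from 0), with 1 point per library, the replicate number as the symbol and a line at the mean of each group of 2. Igf1, Igfbp3 and Igfbp7 lie higher in both cushion groups, Igfbp2 lies lower there, and Igfbp6 stays at or below 0.402 CPM.

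**Figure D3:**
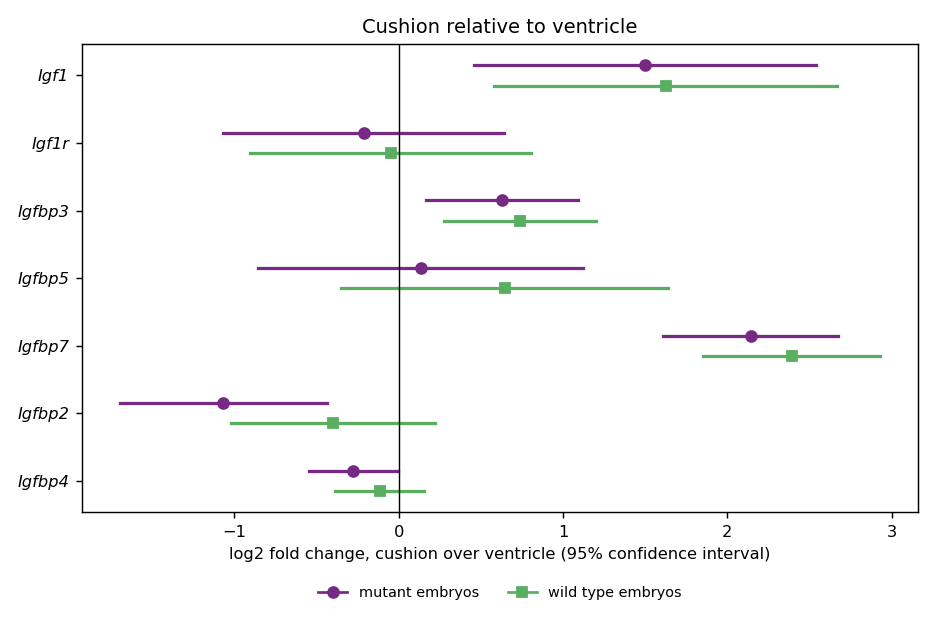
Log2 fold change of cushion over ventricle with its 95% confidence interval for the 7 tested genes, in mutant and in wild type embryos. Both intervals of Igfbp7, Igf1 and Igfbp3 lie above 0, the mutant intervals of Igfbp2 and Igfbp4 lie below 0, and the intervals of Igf1r and Igfbp5 span 0 in both genotypes.

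Mutants were then compared with wild type in each tissue, to ask whether these genes differ with the mutant genotype. If an Nfatc1 copy is lost too, its part cannot be told apart from the loss of Klf2. None of the 7 genes passed in cushions or in ventricles. In edgeR's quasi-likelihood test 0% of all genes tested were called in either tissue, and the same 0 of 7 was found with DESeq2, with limma-voom and with the replicate block, in which 0.863% of all genes were called in cushions and 0.00669% in ventricles. At an unadjusted p under 0.05 there were 0 of the 7 genes in either tissue, where 1699 of 14940 genes in cushions and 342 in ventricles had one. With the block there were 2 of the 7 in each, where 3557 and 1088 of all genes had one. The block calls over all genes in cushions, 129, ranged from 25 without wild type cushion replicate 2 to 891 without mutant cushion replicate 1. The log2 fold changes were positive for 3 and negative for 4 genes in cushions, with a median of -0.21, and positive for 5 and negative for 2 in ventricles, with a median of 0.18, where all genes had medians of -0.01 in both. The 9 cushion mesenchyme markers all had negative values in both tissues, with medians of -0.41 and -0.28. The 5 erythroid markers (medians 0.59 and 0.21) and the 5 leukocyte markers (0.41 and 0.22) all had positive values in both. In ventricles 7 of 8 endothelial, 4 of 4 platelet and 5 of 5 mural markers were positive (medians 0.23, 0.38 and 0.19). The cushion values were positive for 4, 1 and 3 of them (medians 0.03, -0.31 and 0.09). In cushions the medians of 5 epicardial and 3 tested neural crest markers were 0.54 and -1.10, with 1 called higher and 1 lower with the block, and 1 mural marker was called lower with it. No marker passed without the block, and the part of these cell types in the members' values was not tested.

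Across genes the cushion effect ran with GC content, with a Spearman rho of -0.607. Igfbp2 had a log2 fold change of -0.52 ± 0.27 (SE) and a 95% confidence interval of -1.15 to 0.11 (adjusted p = 0.476). Its value was -0.16 with the GC and length correction, -0.20 without mutant cushion replicate 1, -0.29 without wild type cushion replicate 2 and -0.94 without mutant cushion replicate 2. Its mutant library of replicate 2, at 15.4 CPM, lay above the wild type library of replicate 1, at 15.02 CPM. Igfbp7 had -0.32 ± 0.22 (interval -0.82 to 0.18), or -0.07 with that correction, and Igfbp5 -0.29 ± 0.42 (interval -1.28 to 0.70). Igf1r had -0.21 ± 0.36 (interval -1.07 to 0.65). Igfbp3 had 0.30 ± 0.20 (interval -0.15 to 0.76), or 0.38 with the correction. The narrowest interval was that of Igfbp4, with 0.07 ± 0.12 (interval -0.20 to 0.34), but its value was 0.31 ± 0.10 (SE) with the correction, which did not pass (adjusted p = 0.806). Igf1 had 0.05 ± 0.42 (SE, interval -0.96 to 1.07) without the block and 0.05 ± 0.12 (SE) with it. Mutant and wild type cushion libraries overlapped for all 7 genes, while they did not for 48.4% of all genes tested.

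In ventricles Igfbp3 and Igfbp4 were the genes whose mutant libraries lay above the wild type ones, as they did for 13.1% of all genes tested; 27.7% did not overlap in either direction. Igfbp3 had a log2 fold change of 0.41 ± 0.20 (SE, interval -0.05 to 0.88) and Igfbp4 of 0.23 ± 0.12 (SE, interval -0.04 to 0.50), both with an adjusted p of 0.998, or 0.674 with the block. Igfbp5 had 0.22 ± 0.42, Igf1 0.18 ± 0.43, Igfbp2 0.15 ± 0.27, Igfbp7 -0.07 ± 0.24 and Igf1r -0.04 ± 0.36 (SE), with overlapping groups. Across genes the ventricle effect ran with GC content as well, with a Spearman rho of 0.458. With the GC and length correction Igfbp3 had 0.33 and Igfbp4 0.14, and neither passed. Averaged over the tissues, Igfbp3 had the smallest unadjusted p of the 7, with 0.36 ± 0.14 (SE) and an adjusted p of 0.999, and none of the 7 passed, where 0.0134% of all genes did, or 0.207% with the block.

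The difference between the genotype effects in the tissues (cushion minus ventricle) was negative for all 7 genes, but positive for Igfbp3, Igfbp4 and Igfbp7 (0.05, 0.16 and 0.13) once GC content and length were corrected for. It lay between -0.67 ± 0.38 (SE) for Igfbp2 and -0.11 ± 0.29 (SE) for Igfbp3, with a median of -0.17 against -0.01 over all genes. None passed (adjusted p from 0.482 to 0.946, and 0% of all genes called with and without the block). In the block fit leaving out mutant cushion replicate 1 or 2 gave 1312 or 198 calls over all genes, mutant ventricle replicate 1 gave 1198, wild type ventricle replicate 1 gave 391 and wild type cushion replicate 2 gave 2. Across genes this difference ran with GC content, with a Spearman rho of -0.657, and the GC content of the 7 transcripts lay between 38% for Igf1 and 62.1% for Igfbp2, against a median of 49.6% over tested genes.

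**Figure D4:**
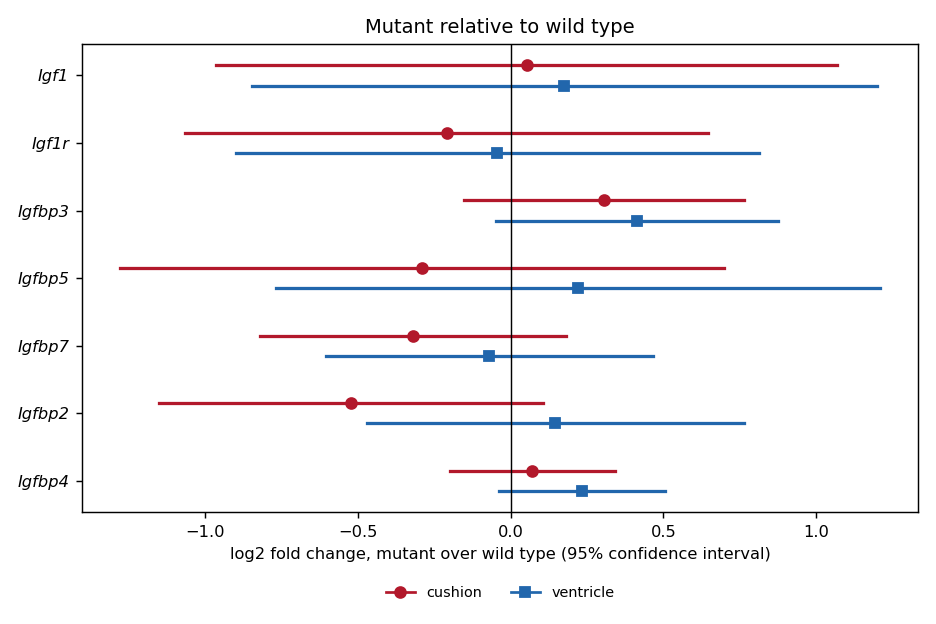
Log2 fold change of mutant over wild type with its 95% confidence interval for the 7 tested genes, in cushion and in ventricle. Every interval spans 0, and the narrowest are those of Igfbp4.

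The table held 5 rows for Igf1. Of these, 4 had similar counts, and the first row had between 6.49% and 11.7% of the reads of the largest row. Which transcript the first row counts is not given in the sources used here. Its share was 7.55% and 8.15% in mutant cushions, against 9.07% and 11.7% in wild type cushions, with exact 95% binomial (Clopper-Pearson) intervals of 6.98% to 8.16%, 7.41% to 8.94%, 8.44% to 9.73% and 10.81% to 12.54% in that order, which cover counting error only. In ventricles the share was 7.39% and 10.4% in mutants, with intervals of 6.52% to 8.33% and 8.95% to 11.9%, against 6.49% and 6.99% in wild type, with intervals of 5.46% to 7.63% and 5.74% to 8.42%. Cushion mutants thus lay below wild type and ventricle mutants above, with some intervals overlapping. When this row stood for the gene, the cushion log2 fold change of mutant over wild type was -0.31 in place of 0.05 and did not pass (adjusted p = 0.613). The ventricle value was then 0.51 in place of 0.18 and did not pass either (adjusted p = 0.997).

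The replicate number went with the level of several of these genes. Igf1, Igf1r, Igfbp5 and Igfbp7 were higher in replicate 1 than in replicate 2 in all 4 groups, while 19.1% of all genes tested were. For Igf1 the ratio of replicate 1 to replicate 2 was 1.75 in mutant cushions, 1.72 in wild type cushions, 1.78 in mutant ventricles and 1.42 in wild type ventricles. For Igfbp5 it was 1.44, 1.12, 1.99 and 1.94 in the same order. Igfbp2 had ratios of 0.597, 0.742, 0.712 and 1.06, and those of Igfbp4 lay between 0.924 and 1.02, so not all 7 genes went this way. The summed markers of cushion mesenchyme, of cardiomyocytes and of erythroid cells were higher in replicate 1 of every group as well. Chamber myocardium sums were lower in replicate 1 in mutant cushions (2374 against 5016 CPM) and mutant ventricles (8554 against 12040 CPM). They were also lower in wild type ventricles (8625 against 10450 CPM), but not in wild type cushions. Leukocyte sums were lower in replicate 1 except in wild type ventricles, and no other list went the same way in every group. The labels do not say what the number marks.

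**Figure D5:**
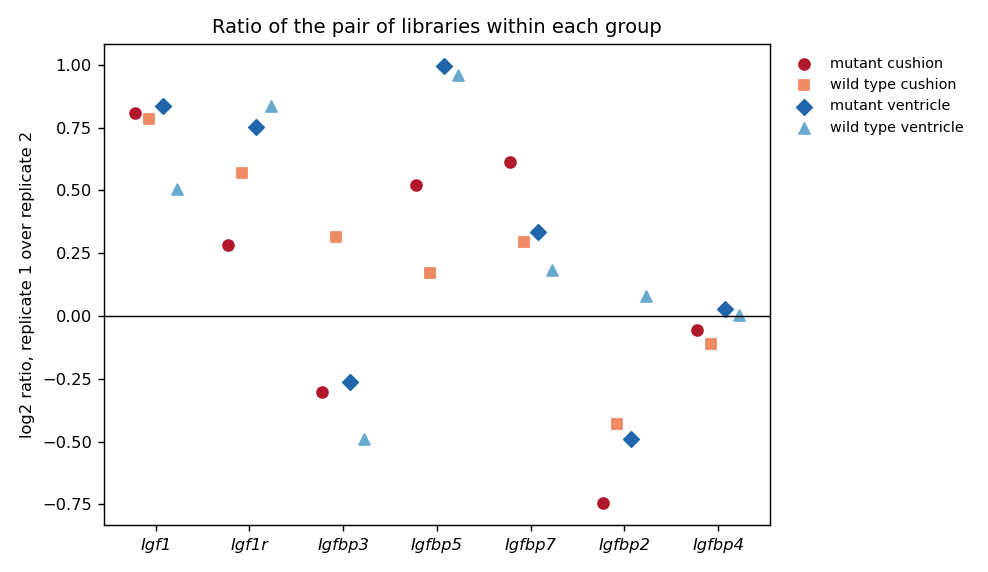
Log2 ratio of replicate 1 over replicate 2 in each of the 4 groups for the 7 tested genes. The 4 points of Igf1, Igf1r, Igfbp5 and Igfbp7 lie above 0, and those of Igfbp4 lie close to 0.

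Other genes of the pathway were taken from 4 lists. Of 9 other ligands, receptors and binding proteins 4 were tested, and 0 passed between genotypes in either tissue. Igf2, the main IGF of the embryo, was at 1547 and 1123 CPM in mutant cushions, 1441 and 1169 in wild type cushions, 1797 and 1512 in mutant ventricles and 1684 and 1466 in wild type ventricles. Per kilobase its level was 6.03 and 7.68 times that of Igf1 in mutant cushions, 5.87 and 8.19 times in wild type cushions, 19.7 and 29.6 times in mutant ventricles and 22.8 and 28.2 times in wild type ventricles. The tissues did not overlap in this ratio. An antisense gene lies at Igf2 and the strand setting of the counts is not known, so its level is uncertain. The same holds for Igf2r, the receptor that clears Igf2. Igfbpl1, a gene related to the binding proteins, was lower in cushions, with 8.98 ± 5.28 CPM in mutant cushions against 35.7 ± 7.46 in mutant ventricles, and 10.4 ± 0.990 CPM in wild type cushions against 35.6 ± 6.34 in wild type ventricles (SD, n = 2 each). Its log2 fold change of cushion over ventricle was -1.98 in mutants (adjusted p = 0.0232) and -1.77 in wild type (adjusted p = 0.0187). It was the 1 gene of this list that passed in either genotype, and with the block Insr, the insulin receptor gene, also fell in wild type (-0.36, adjusted p = 0.0455).

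Genes of proteases that cut binding proteins, and of their inhibitors, were compared between cushion and ventricle within each genotype. In mutants 3 of 8 were called higher in cushion and 0 lower, where 9.42% of all genes were called. In wild type 4 of 8 were called higher in cushion and 0 lower, where 23.1% were called. The median over the list was 0.78 in mutants and 0.80 in wild type on the log2 scale, against 0.01 over all genes in both. Htra1, a secreted serine protease gene, was at 119.9 and 69.95 CPM in mutant cushions, 216 and 153 CPM in wild type cushions, 24.5 and 14.7 CPM in mutant ventricles and 30.7 and 18.7 CPM in wild type ventricles. Its log2 fold change of cushion over ventricle was 2.28 ± 0.41 (SE) in mutants (adjusted p = 0.0211) and 2.90 ± 0.42 (SE) in wild type (adjusted p = 0.00581). The matrix metalloprotease genes Mmp2 and Mmp14 rose in both genotypes, Mmp2 by 1.46 and 2.10 and Mmp14 by 0.98 and 1.56 in mutants and wild type. Pappa, which encodes a protease that cuts Igfbp4 and Igfbp5, rose in wild type by 1.30 (adjusted p = 0.0436), and in mutants with the block (0.98 without it, adjusted p = 0.146, and 8.68e-05 with it).

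Between genotypes 0 genes of the protease list passed. With the block Htra1 fell in mutant cushions, with a log2 fold change of -0.96 ± 0.39 (SE) in the fit without the block (adjusted p = 0.435, and 6.52e-04 with it). Its mutant cushion libraries lay below the wild type ones. Libraries of the genotypes did not overlap for 48.4% of all genes tested in cushions and 27.7% in ventricles. Stc1, which encodes a secreted inhibitor of Pappa, had 0.40 ± 0.19 (SE) in cushions and 0.50 ± 0.19 (SE) in ventricles, and mutant libraries lay above wild type ones in both tissues; neither passed, with or without the block (adjusted p = 0.452 and 0.998 without it). Stc2, of the same family, had 0.51 ± 0.26 (SE) in cushions and 0.18 ± 0.27 (SE) in ventricles, which did not pass.

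None of the 3 genes that encode Igf2 mRNA binding proteins passed in any comparison of the fit without the block, and Igf2bp3 fell in wild type cushions against ventricles with it (-0.33, adjusted p = 0.0247). Of 24 tested genes of the intracellular relay, 0 passed between genotypes in either tissue, with or without the block. In cushions 11 had positive and 13 negative values, with a median of -0.06. The smallest p there were those of Irs2, a substrate of the receptor, and Pik3r2, a subunit of the kinase. Irs2 had a log2 fold change of -0.66 ± 0.25 (SE) and Pik3r2 of -0.61 ± 0.26 (SE) (adjusted p = 0.435 and 0.438). Their mutant libraries lay below wild type ones. Rps6kb1 had 0.31 ± 0.14 (SE, adjusted p = 0.439), with mutant libraries above. Cushion libraries of the genotypes did not overlap for 48.4% of all genes tested. Between tissues 0 relay genes passed in mutants, and 2 rose and 3 fell in wild type, where 23.1% of all genes were called. Foxo3, a transcription factor gene named after its value was seen, rose by 0.67, and Shc1, an adaptor gene, by 0.42. Grb14, which encodes an adaptor that inhibits the receptor, fell by 1.12, Rps6kb1, which encodes S6 kinase, fell by 0.58, and Pdpk1, which encodes the kinase that activates Akt, fell by 0.50. With the block 1 rose and 1 fell in mutants, where 23.9% of all genes were called, and 7 rose and 5 fell in wild type, where 41.4% were.

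Genes whose log2 level ran most like each member over the 8 libraries were sought among 9177 genes with a mean of at least 10 CPM. The nearest to Igfbp7 were Plcb1 (Pearson r = 0.997), Serpinf1 (0.996) and Oprl1 (0.996). The nearest to Igf1 were Sertad4 (0.994), Cyfip1 (0.993) and Egfr (0.992), and to Igf1r Helz (0.996), Ubap2l (0.994) and Arid1a (0.991). Igfbp3 ran like Ube2z (0.976) and Mpp1 (0.970), Igfbp2 like Hspb7 (0.977), Rec8 (0.976) and Prkaca (0.971), Igfbp5 like Mcm3ap (0.983), Golgb1 (0.979) and Kif13b (0.975), and Igfbp4 like Cars2 (0.969), Tmem164 (0.957) and Esam (0.947). No gene was named for more than 1 member. The 8 libraries share 2 tissues, the replicate number and depth, so these values describe the libraries only.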

How the data were processed

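Total RNA of AV cushions and ventricles was extracted with a Qiagen micro kit and sequenced after ribosomal RNA removal with a stranded kit, per the labels' protocols. The submitters' processing notes name Bowtie 0.12.7 and mm9. For the counter, annotation and strand setting no source used here gives a name. The table, deposited 8 times with equal content, holds raw counts in 28644 rows. Of several rows with 1 symbol, that with most counts was used.

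Tests were run in R 4.3.3 with edgeR 4.0.16 (TMM scaling, filtering by expression, a robust quasi-likelihood fit of 4 groups over 8 libraries, two-sided tests, Benjamini-Hochberg adjustment over 14940 genes, threshold 0.05). SE is the log2 fold change over the root of F. Alternatives included DESeq2 1.42.0 and limma 3.58.1 (voom). The tests were run on simulated data with changes planted in mutant cushions only, and the outcome is not reported here. Unlike these libraries, the simulated ones had no effect of tissue or replicate number. Lengths and GC content came from the longest GENCODE vM21 transcript, matched for 98.2% of symbols. The correction for them is a spline offset per library.

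Whether a group's libraries stem from different embryos is not stated, so p-values reflect only how these samples differ, possibly for technical reasons. They differed beyond sampling noise, with chi-square per degree of freedom from 42.96 to 111.4. Groups share replicate numbers 1 and 2, whose meaning is not stated. Deviations of replicate 1 correlated between groups in all 6 pairs (r from 0.341 to 0.522), so a fit with the number as a block is given beside results whose call it changes. The pairing was seen in the data and is not stated by the design.

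Named genes are the 8 members, up to 4 genes with the smallest p of each pathway list in each genotype contrast and in the wild type tissue contrast, Klf2 and Nfatc1, and the 3 most similar genes per member, of which 1 is not reported here. Foxo3 was named outside this rule. The members and lists were chosen with earlier results of these data known.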

Additional observations from a re-analysis of the deposited data

Results flagged for a closer look

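Rps6kb1, which encodes S6 kinase, is given here because its libraries moved in opposite directions in the tissues. It was picked by this difference, so the values are no test of it. It was at 113.6 and 129.95 CPM in mutant cushions, above 96.2 and 100.1 CPM in wild type cushions, and at 119.7 and 121.4 CPM in mutant ventricles, below 133 and 160.3 CPM in wild type ventricles. Genotypes did not overlap for 48.4% of all genes tested in cushions and 27.7% in ventricles. The genotype effect in cushion minus that in ventricle was 0.59 ± 0.20 on the log2 scale (SE). Its adjusted p was 0.415 in edgeR over all genes, or 0.0852 with the replicate block, so the difference did not pass. Irs2 (-0.86), Pik3r2 (-0.79) and Akt1 (-0.69) had larger differences of the other sign, which did not pass either. Across genes this difference ran with GC content (Spearman rho -0.657), and no GC-corrected value of Rps6kb1 is given.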

How the results depend on the processing

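In the genotype comparisons 0 of the 7 tested genes passed under every alternative run (replicate block, DESeq2 and its size factors, limma-voom, no filter, first row per symbol, a correction for GC content and length, that correction with the block, and each library left out). Leaving out a library in the block fit was chosen after seeing the data. For cushion over ventricle the number called, 2 in mutants, was 4 with the replicate block, 6 with the GC correction and block, and 1 to 4 with a library left out. The replicate block added Igf1 and Igfbp3 in mutants and Igfbp5 in wild type and changed no other call of the 7 genes. In wild type, where 3 were called, it was 6 with the GC correction and block and 1 to 5 with a library left out. Over all genes the 1407 calls in mutants (920 higher, 487 lower) became 2181 with the GC correction (1020 higher, 1161 lower), 3572 with the block and 4725 with both, and the 3452 in wild type (1861 higher, 1591 lower) became 3616 (1549 higher, 2067 lower), 6180 and 6153. The cushion genotype gave 0 calls over all genes, but 129 with the block, 74 with the GC correction and block, 25 with DESeq2, 5 with no filter and 2 with limma-voom. The average genotype gave 2, but 31, 34 and 15 with the block, the GC correction and block, and DESeq2.

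Signs turned only for log2 fold changes that did not pass. For Igf1 the cushion genotype effect was -0.31 from the first row, -0.21 with the GC correction and -0.22 with the GC correction and block, and in ventricles Igfbp2 gave -0.019 and -0.024 with these corrections and Igf1r 0.0042 and 0.0050. The effect difference between tissues was 0.13 and 0.15 for Igfbp7, 0.052 and 0.035 for Igfbp3 and 0.16 and 0.16 for Igfbp4 under those corrections, and the average effect of Igfbp5 was 0.0085 under the first. With a library left out, with or without the block, the cushion genotype effect ran from -0.41 to 0.48 for Igf1, -0.47 to 0.090 for Igf1r, -0.027 to 0.62 for Igfbp3 and -0.65 to 0.023 for Igfbp5. The ventricle effect ran from -0.30 to 0.53 for Igf1, -0.47 to 0.46 for Igf1r, -0.19 to 0.47 for Igfbp2, -0.36 to 0.81 for Igfbp5 and -0.24 to 0.086 for Igfbp7. Their difference ran from -0.58 to 0.34 for Igf1, -0.67 to 0.25 for Igf1r, -0.45 to 0.18 for Igfbp3, -1.10 to 0.066 for Igfbp5 and -0.59 to 0.025 for Igfbp7, and their average from -0.13 to 0.33 for Igf1, -0.34 to 0.12 for Igf1r and -0.33 to 0.26 for Igfbp5. Cushion over ventricle ran from -0.54 to 0.18 for Igf1r and -0.28 to 0.68 for Igfbp5 in mutants, and from -0.41 to 0.42 for Igf1r in wild type. The cause of these changes was not tested. With 33 reads in all, Igfbp6 was too shallow to compare.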
